A study of Mus musculus with 8 samples.

Results

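Expanded T cell clones were compared between the livers of EomesTG and WT mice. A clone was all liver cells that shared the V gene, the J gene and the CDR3 nucleotide sequence of both receptor chains, TRB and TRA. Each chain was read from the productive contig with the most UMIs in the cell barcode; a UMI (unique molecular identifier) counts 1 captured RNA molecule. Cells entered with 500 UMIs and 300 genes or more and with under 10% of UMIs from mitochondrial genes, and a clone of at least 3 such cells was called expanded. The rule gave 81 expanded clones with 2251 cells in the EomesTG liver and 43 expanded clones with 374 cells in the WT liver. These are 2625 of the 18732 cells kept in the 4 libraries of the series, which cover liver and spleen of both genotypes.

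EomesTG mice carried an Eomes transgene on both alleles (labelled EomesTg/Tg, C57BL/6 background) and were made to express Eomes in T cells; which promoter drives it is not stated in the sources used here. WT mice were C57BL/6. Cells of 3 mice of each strain were combined before the CD8+ sort, and each organ pool gave 1 RNA library and 1 TCR library of the 10x 5′ kind. Nor do these sources state age, sex or treatment. With 1 pool per genotype there is no spread between mice and no test, the mouse of origin of a clone is unknown, and genotype, mice and handling cannot be told apart. All intervals below are 95% intervals for counting error only.

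As background, a developing T cell joins V, D and J segments of the TRB locus and V and J segments of the TRA locus, trimming and adding bases at the joints. The CDR3 spans the joints and contacts the presented peptide, and daughter cells inherit it, so that a CDR3 pair marks the descendants of 1 cell. Eomes is a T-box transcription factor that promotes cytotoxic and memory programmes in CD8 T cells and natural killer (NK) cells. It is also found, with the inhibitory receptor PD-1 (Pdcd1) and the factor Tox, in CD8 T cells under persistent stimulation. The liver holds resident CD8 T cells that bear the chemokine receptor Cxcr6 and patrol its sinusoids.

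The CDR3 sequences of the largest clones identify them in the results that follow. They are given 5′ to 3′ as in the deposited contigs, with bases that matched neither the germline V nor the germline J segment in capitals. Lower case marks germline matches of at least 6 bases, and the whole run where the V segment could not be matched. The WT clone 2 TRB below is such an unmatched sequence, so its lower case does not show a join without added bases. TRB lies on chromosome 6 and TRA on chromosome 14. EomesTG clone 1 (492 cells) joined TRBV3 to TRBJ1-5 and TRAV14D-1 to TRAJ23, and EomesTG clone 2 (448 cells) joined TRBV15 to TRBJ2-7 and TRAV19 to TRAJ58.
EomesTG clone 1 TRB: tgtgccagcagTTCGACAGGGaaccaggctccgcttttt
EomesTG clone 1 TRA: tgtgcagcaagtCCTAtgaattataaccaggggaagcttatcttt
EomesTG clone 2 TRB: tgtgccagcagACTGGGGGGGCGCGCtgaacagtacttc
EomesTG clone 2 TRA: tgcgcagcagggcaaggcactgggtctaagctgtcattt
EomesTG clones 3 (233 cells) and 5 (75 cells) had the same TRB, TRBV12-1 joined to TRBJ2-5, and different TRA chains. Both TRA chains were read in 101 cells of clone 3 and in 46 cells of clone 5, so the rule, which takes the TRA with more UMIs, placed cells of 1 receptor pair plus a second TRA in separate clones.
EomesTG clones 3 and 5 TRB: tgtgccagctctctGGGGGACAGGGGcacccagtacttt
EomesTG clone 3 TRA: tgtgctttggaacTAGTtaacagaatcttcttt
EomesTG clone 5 TRA: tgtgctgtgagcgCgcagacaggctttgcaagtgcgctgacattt
WT clone 1 (114 cells) joined TRBV29 to TRBJ1-6 and TRAV10 to TRAJ56. WT clone 2 (45 cells) joined TRBV10 to TRBJ2-5 and TRAV7-3 to TRAJ30. WT clones 2 and 21 (4 cells) had the same TRB, and both TRA chains were read in 20 and 3 of their cells, so they were split as EomesTG clones 3 and 5 were.
WT clone 1 TRB: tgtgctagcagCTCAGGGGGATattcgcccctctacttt
WT clone 1 TRA: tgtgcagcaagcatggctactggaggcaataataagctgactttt
WT clone 2 TRB: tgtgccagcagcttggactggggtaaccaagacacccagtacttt
WT clone 2 TRA: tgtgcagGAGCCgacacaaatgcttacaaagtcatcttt
WT clones 7 and 8 (9 cells each) are shown because they shared 1 TRA (TRAV14N-3, TRAJ13) and the TRBV13-3 segment but had different TRB junctions; they belong to the WT clones with little Cd8b1 RNA described further on.
WT clone 7 TRB: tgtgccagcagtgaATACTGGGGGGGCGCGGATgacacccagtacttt
WT clone 8 TRB: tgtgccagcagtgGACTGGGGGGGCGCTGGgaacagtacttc
WT clones 7 and 8 TRA: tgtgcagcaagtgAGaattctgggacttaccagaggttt

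Expanded clones held 69.2% (67.6 to 70.8%) of the 3253 EomesTG liver cells with both chains, against 15.7% (14.2 to 17.2%) of the 2386 WT liver cells with both chains. Drawing 2386 of the EomesTG cells at random would leave an expected 68.0% of cells in 64.8 expanded clones, little below the observed share. The largest EomesTG clone made up 15.1% of cells with both chains and the largest WT clone 4.78%. In the EomesTG liver 19 clones held at least 20 cells (1870 cells in all), against 2 clones (159 cells) in the WT liver. Small expanded clones of 3 to 5 cells numbered 36 in the EomesTG liver and 28 in the WT liver. The median expanded clone had 6 cells in the EomesTG liver and 4 cells in the WT liver. The 3 largest clones held 52.1% of expanded cells in the EomesTG liver and 46.3% in the WT liver, so a value summed over cells is decided by few clones on both sides. In the matched spleens expanded clones held 1.15% of cells with both chains in EomesTG and 2.06% in WT.

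**Figure D1:**
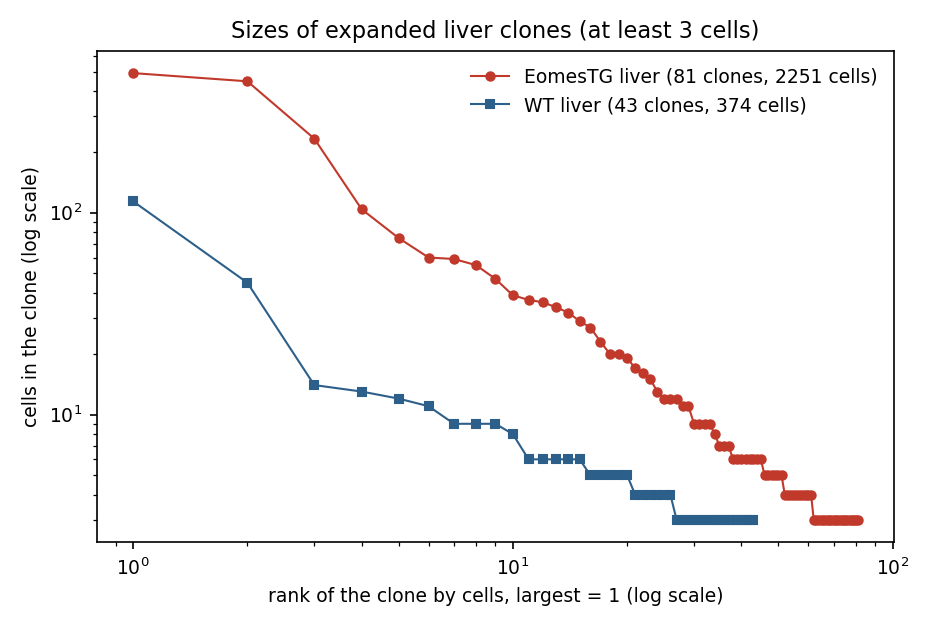
Cells per clone (log axis) against clone rank for the 81 EomesTG and 43 WT expanded liver clones, 1 point per clone. EomesTG clone sizes run from 3 to 492 cells with 19 clones of at least 20 cells, and WT sizes from 3 to 114 cells with 2 such clones.

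Receptors differed from clone to clone in both livers, and no clone was found in both genotypes. The 81 EomesTG clones used 75 distinct TRB sequences and the 43 WT clones 42. The EomesTG TRB CDR3 averaged 13.7 ± 1.34 residues (SD over 81 clones), against 14.1 ± 1.40 residues over the 43 WT clones, and 13.8 and 13.9 residues over cells of single-cell clones of the EomesTG and WT livers. Bases that matched neither V nor J numbered a median of 10 in the TRB junction in both genotypes, over the 81 EomesTG and 41 WT clones with matched segments. In the TRA junction they numbered 3 over 80 matched EomesTG clones and 2 over 42 matched WT clones. D segments were not matched, so the TRB count includes any germline D bases. None of the expanded clones of either liver carried the invariant TRA joins of NKT cells (TRAV11 with TRAJ18) or MAIT cells (TRAV1 with TRAJ33). TRBV15 and TRBV3 held 25.9% and 25.2% of EomesTG expanded cells, in 4 and 6 clones, TRBV3 with clone 1 and TRBV15 with clones 2 and 4 among them. TRBV29 held 35.0% of WT expanded cells in 3 clones. Counted by clone, TRAJ49 was used by 12 of 81 EomesTG clones and 1 of 43 WT clones, a difference picked out after all segments were seen and not tested.

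Fewer of the EomesTG clones were seen in the spleen of the same mice. Of the 81 EomesTG liver clones, 12 (14.8%) had cells in the EomesTG spleen, 41 cells in all, against 19 of 43 WT liver clones (44.2%) with 74 cells in the WT spleen. Clones seen in the spleen held 17.1% of expanded EomesTG liver cells, against 63.4% of expanded WT liver cells. EomesTG clones 1 and 2 had no spleen cell, clone 3 had 8 and clone 5 had 6. WT clone 1 had 39 spleen cells and WT clone 2 had none. Between 23 and 57 cell barcodes occurred in any pair of the 4 libraries, 28 of them between the livers, and in no case with the same clone.

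The cells matched their CD8 T cell label by most markers. Cd8a, Cd3d, Cd3e, Cd3g and the receptor constant genes were found in both genotypes, Cd8a in every expanded clone, and Cd4 had 0 UMIs in the expanded cells of either. Cd8b1, the CD8 beta chain, averaged 687 CPM in EomesTG and 1630.4 CPM in WT expanded cells, where CPM is UMIs per 1000000 UMIs summed over the expanded cells of a genotype; fewer cells with an RNA and less of it per cell cannot be told apart in such a sum. Of gamma-delta T cell genes, the gamma constant genes Tcrg-C2 and Tcrg-C4 reached 123 and 191 CPM in EomesTG, against 23.9 and 21.3 CPM in WT. Tcrg-C1 had 6.44 CPM in EomesTG and 12.4 CPM in WT (log2 −0.94 by cells, 0.95 without WT clone 2). Trdc, the delta constant gene, had 3 UMIs and 0 UMIs and Sox13 had 0 in both. The 6 gamma-delta genes summed to 321 CPM in EomesTG and 57.5 CPM in WT expanded cells, and 6 CD4 T cell genes, Ctla4 among them, to 189 and 120 CPM. Summed markers of NK, B, myeloid and liver cells were lower in EomesTG than in WT expanded cells: 328 against 631 CPM for 7 NK genes, 83.4 against 101 CPM for 8 B cell genes, 8.72 against 29.0 CPM for 12 myeloid genes, 2.28 against 7.24 CPM for 10 hepatocyte genes and 5.45 against 9.80 CPM for 8 genes of liver endothelium and stroma. The NK sum ran from 0 to 2934 CPM over EomesTG clones (median 264) and from 0 to 3615 CPM over WT clones (median 120), and it holds Eomes itself. Expanded EomesTG cells were shallower, with a median of 3836 UMIs and 1581 genes, against 4920.5 UMIs and 1816.5 genes in WT expanded cells. Barcodes with 2 productive TRB chains, a possible sign of doublets, were 4.13% of EomesTG and 7.49% of WT expanded cells. Without those barcodes 2062 genes were called by cells in place of 2056, and without cells holding at least 3 UMIs of B cell, myeloid, liver or erythroid markers 2015.

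Eomes was higher in the expanded EomesTG cells, as the label states, at 212 CPM against 99.2 CPM in expanded WT cells. The log2 ratio was 1.09 (0.90 to 1.29), and 1.16 when each clone counted once, which is the ratio of the mean CPM over clones. Eomes (ENSMUSG00000032446, chromosome 9, 118478212 to 118486132, forward strand, GENCODE M21) is counted by gene, so that transgene and endogenous RNA are not separated. Its level by clone had quartiles of 81.0, 158.8 and 253 CPM over EomesTG clones and 0, 33.7 and 145 CPM over WT clones. The groups of clones overlapped: 75 of 81 EomesTG clones lay above the WT median, but only 2 lay above the highest WT clone. Eomes had a UMI in 76 of 81 EomesTG clones and in 25 of 43 WT clones.

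Pdcd1, which encodes the inhibitory receptor PD-1 (ENSMUSG00000026285, chromosome 1, 94038305 to 94052553, reverse strand), had 708 CPM in expanded EomesTG cells, against 63.5 CPM in expanded WT cells. That is 11.2-fold higher by cells, a log2 ratio of 3.48 (3.25 to 3.72), and 6.83-fold higher with each clone counted once. The median clone had 535 CPM in EomesTG and 39.9 CPM in WT. Of the EomesTG clones 71 lay above the WT median and 9 above the highest WT clone (890.2 CPM), while 8 had no Pdcd1 UMI. With 1 clone left out at a time the log2 ratio by cells ran from 3.17 to 3.90.

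Cxcr6, the receptor that retains CD8 T cells in the liver (ENSMUSG00000048521, chromosome 9, 123806475 to 123811760, forward strand), had 507 CPM in EomesTG and 237 CPM in WT expanded cells. The log2 ratio of 1.10 (0.97 to 1.22) by cells was 0.62 with each clone counted once, just past the 1.5-fold threshold. With each clone counted once it was under that threshold in 6 of 14 other settings (0.31 to 0.57), and by cells it was under it in clones of 3 to 5 cells (0.47). Cxcr6 was found in 80 of 81 EomesTG and 39 of 43 WT clones, and the highest level of all was in WT clone 5, at 1208 CPM. Nearly all clones on both sides thus had a Cxcr6 UMI, but this did not hold for their cells. With cells thinned to the same number of UMIs, Cxcr6 was found in 58.7% (56.6 to 60.8%) of 2114 EomesTG expanded cells. The WT share was 32.3% (27.5 to 37.4%) of 356 expanded cells. A lower level also lowers detection, so fewer positive cells and less RNA per cell were still not told apart.

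**Figure D2:**
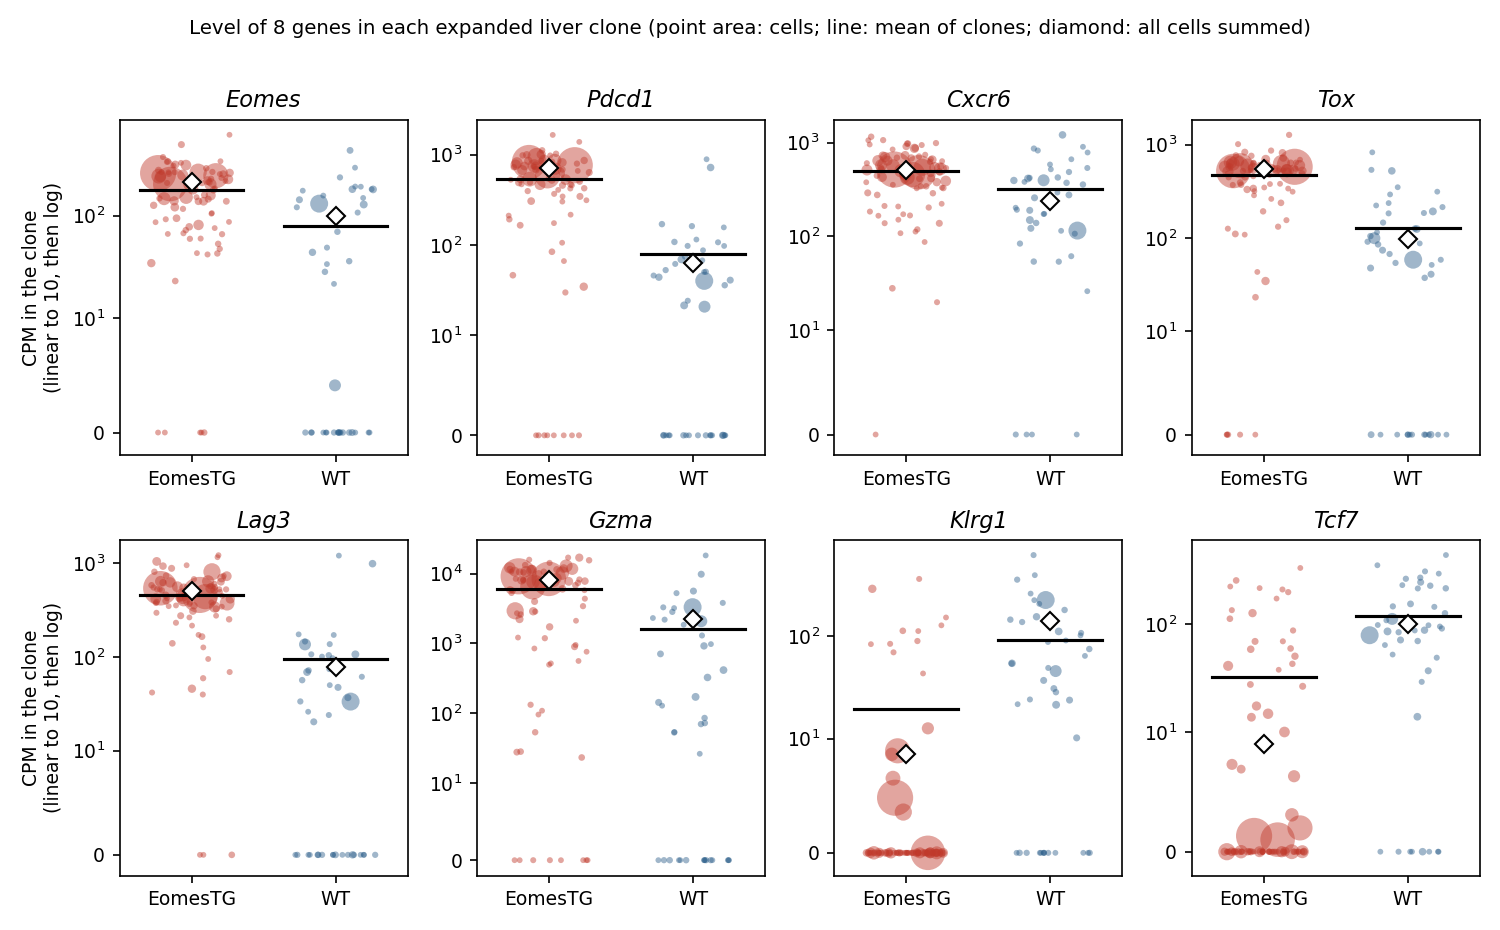
CPM of 8 genes by clone for EomesTG (left in each panel) and WT (right) expanded liver clones, with point area set by the number of cells, a line at the mean over clones and a diamond at the value summed over all cells. Pdcd1, Tox, Lag3 and Gzma lie higher over EomesTG clones and Klrg1 and Tcf7 higher over WT clones, with overlap in every panel.

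Across the transcriptome, 9347 genes with at least 50 UMIs were compared. A gene was called when the ratio by cells was at least 1.5-fold and its interval did not include equality, and, with each clone counted once, when the ratio of clone means was at least 1.5-fold. By cells, 1142 genes (12.2%) were higher and 914 (9.78%) lower in EomesTG expanded cells. With each clone counted once, 1434 (15.3%) were higher and 1264 (13.5%) lower, with 796 higher and 638 lower both ways. The median log2 ratio of all genes was 0.04 by cells and −0.01 clone by clone, against which the gene groups below are set. The lists name what each gene is known for and were compiled with earlier results of these data known, so their directions are no independent evidence.

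The listed inhibitory receptors were mostly higher: 9 of 10 measured members were higher by cells and none lower, with a median log2 ratio of 2.14. With each clone counted once 9 were higher (median 1.60). Btla, also listed, was under the minimum, with 21 UMIs in EomesTG and 14 UMIs in WT. The inhibitory receptor Klrg1 was placed among the terminal effector genes and was lower (log2 −4.02). Beyond Pdcd1, Lag3, a CD4-related receptor that dampens T cell activation, had 501 CPM in EomesTG and 78.8 CPM in WT expanded cells (log2 2.67, 2.46 to 2.89), and a UMI in 78 of 81 and 25 of 43 clones. Tigit, a receptor for nectin-family ligands, had 495 and 116 CPM (log2 2.09). Cd200r1, the receptor for CD200, had 136 and 13.2 CPM (log2 3.36). Havcr2 (TIM-3) had 45.3 and 12.8 CPM and Entpd1 (CD39, an ectonucleotidase) 141 and 41.3 CPM. Cd160 was the member not called, at a log2 ratio of 0.30 by cells and −0.27 clone by clone.

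Of 16 transcription factors and regulators linked to exhaustion, 9 were higher, 1 lower and 6 not called by cells (median 0.87; clone by clone 8 higher and 1 lower, median 0.69). Tox, an HMG-box factor required for exhausted T cells to persist, had 549 CPM in EomesTG and 96.3 CPM in WT expanded cells (log2 2.51, 2.32 to 2.71). Its relative Tox2 had 69.6 and 8.94 CPM (log2 2.96), or 3.86 without WT clone 5. Nfil3, a basic leucine zipper factor, had 145 and 26.4 CPM, and the G protein regulator Rgs16 had 395 and 84.8 CPM. The nuclear receptors of the Nr4a family did not move together: Nr4a2 was higher (688 and 151 CPM) and Nr4a1 lower (log2 −1.04, though not past 1.5-fold clone by clone, at −0.42).

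Genes of naive and recirculating T cells were lower in 10 of 12 measured members, with none higher (median −2.86; clone by clone 10 lower and 1 higher, median −1.94). Tcf7 (TCF-1), the factor of self-renewing T cells, had 9.02 CPM in EomesTG and 99.2 CPM in WT expanded cells, a log2 ratio of −3.46 by cells and −1.88 clone by clone. Its partner Lef1 had 6.14 and 66.0 CPM, Il7r, the survival receptor for IL-7, 6.14 and 58.3 CPM, and Klf3 20.2 and 195 CPM. S1pr1, which guides T cells out of tissue, had 6.54 and 108 CPM (log2 −4.05 by cells, −2.22 clone by clone). Klf2, the factor that drives S1pr1, had a log2 ratio of −1.11. Tcf7 had no UMI in 49 of 81 EomesTG clones and in 8 of 43 WT clones.

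Of 14 terminal effector genes, 10 were lower and 1 higher by cells (median −1.55), and 9 were lower clone by clone (median −0.83). Klrg1, the inhibitory receptor that marks short-lived effectors, had 8.62 CPM in EomesTG and 140 CPM in WT expanded cells (log2 −4.02), with a UMI in 17 of 81 and 30 of 43 clones. WT clone 1 held 63.1% of its WT UMIs, and without that clone the log2 ratio was −3.30. Cx3cr1, the fractalkine receptor of effector cells, had a log2 ratio of −3.12, and S1pr5, which directs effector cells into blood, had 2.97 and 67.7 CPM. The effector protein genes of the same list did not follow: Gzmb, granzyme B, had 841 and 982 CPM (log2 −0.22), and Prf1, perforin, was the member called higher, at 163 and 95.4 CPM (log2 0.77).

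Granule proteins and death ligands gave 6 higher and 3 lower of 15 (median 0.43) by cells, and 4 higher and 1 lower clone by clone (median 0.02). Gzma, granzyme A, had 8044 CPM in EomesTG and 2250.1 CPM in WT expanded cells (log2 1.84 by cells, 1.91 clone by clone), with a UMI in 73 of 81 and 28 of 43 clones. Gzmk, granzyme K, had 813 and 433 CPM (log2 0.91). Granzyme M went the other way: Gzmm had 1.98 and 81.8 CPM (log2 −5.37 by cells, −2.95 clone by clone), with WT clone 1 holding 54.7% of its WT UMIs. Gzmc was called higher by cells only through EomesTG clone 6, which held 90.3% of its EomesTG UMIs; without that clone the log2 ratio was −1.21.

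Chemokines and cytokines were higher in 7 of 11 and lower in 2 by cells (median 1.21), and likewise 7 and 2 clone by clone (median 1.04). Ccl3, a chemokine that attracts leukocytes, had 1295 CPM in EomesTG and 181 CPM in WT expanded cells (log2 2.84). Ifng, interferon gamma, had 531 and 230 CPM (log2 1.21). Ccl5, the most abundant of the list, was called at a log2 ratio of 0.76. Csf1, the macrophage growth factor, had 48.1 and 0.426 CPM; with a single WT UMI its log2 ratio was 6.82 (4.33 to 12.12). Xcl1, a ligand for cross-presenting dendritic cells, was lower at 72.1 and 344 CPM (log2 −2.25), or −1.39 without WT clone 2, and over clones of 3 to 5 cells its log2 ratio was 0.39.

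Chemokine receptors and integrins other than Cxcr6 were lower or not called: 1 higher and 7 lower of 12 by cells (median −0.98), 1 and 6 clone by clone (median −0.50). Itgb7, the beta 7 integrin of gut homing, had 45.2 CPM in EomesTG and 365 CPM in WT expanded cells (log2 −3.01, −2.10 clone by clone). Ccr2, a receptor for monocyte chemoattractants, had 5.25 and 82.6 CPM (log2 −3.98, −1.44 clone by clone). Of 12 residency genes 5 were higher and 4 lower by cells (median 0.34). Ahr, the aryl hydrocarbon receptor, was among the higher, 6.28-fold by cells and 11.2-fold clone by clone (log2 2.65 and 3.48). Zfp683 (Hobit), a factor of resident cells in mice, was lower at 5.35 and 29.4 CPM (log2 −2.46), and so was P2rx7, the ATP receptor, at 4.85 and 34.1 CPM. Itgae, which encodes CD103, had 11 and 27 UMIs and was under the minimum, and Cd69 did not differ past 1.5-fold (log2 0.14). The group therefore split, with Cxcr6 and Ahr on 1 side and Zfp683, Xcl1 and P2rx7 on the other.

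NK receptors and adaptors also split, with 5 higher and 8 lower of 15 by cells (median −1.35) and 5 higher and 6 lower clone by clone (median −0.16). The median by cells turned to 0.34 over genes of at least 200 UMIs and to 0.66 over clones of 3 to 5 cells. Klrc1 (NKG2A) had 318 CPM in EomesTG and 23.4 CPM in WT expanded cells (log2 3.76), and its partner Klrd1 (CD94) had 586 and 270 CPM (log2 1.12). Klra3, a Ly49 receptor, had 46.8 and 3.83 CPM (log2 3.61, or 6.77 without WT clone 20). Klra7 and Klra1, other Ly49 receptors, were lower at 20.5 and 325 CPM and at 0.594 and 30.7 CPM. The adaptor Fcer1g was lower at 63.2 and 339 CPM (log2 −2.42), or −0.89 without WT clone 2. Omitting WT clone 2 left Klra7 at −2.22, Tyrobp at −0.26 and Klrb1c at −0.22, so the values of these adaptors and of Klrb1c by cells rested largely on 1 WT clone.

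Of 14 costimulatory receptors 6 were higher and 5 lower by cells (median 0.16), and 2 and 2 clone by clone. Tnfrsf9 (4-1BB), induced by receptor stimulation, had 319 CPM in EomesTG and 30.2 CPM in WT expanded cells (log2 3.40), while Cd226 (DNAM-1), which competes with Tigit for ligand, had 32.8 and 206 CPM (log2 −2.65). Receptor signalling genes gave 8 higher and 3 lower of 20 by cells (median 0.37), and 4 and 2 clone by clone; Sh2d2a, an adaptor that binds Lck, had 1279 and 359 CPM, and Cd3g 2194 and 1019 CPM. Cytokine receptors gave 4 higher and 5 lower of 16 by cells, and 1 and 3 clone by clone, with the IL-12 and IL-18 receptor chains Il12rb2 (log2 −3.10) and Il18rap (log2 −2.79) among the lower.

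Heat shock genes were higher in 10 of 11 measured members by cells (median 1.47) and in 9 clone by clone (median 1.11). Hspa1a, an inducible HSP70, had 1999.9 CPM in EomesTG and 241 CPM in WT expanded cells (log2 3.05), and Dnajb1, its co-chaperone, 1658 and 382 CPM. These genes also differed in cells that were not expanded: in cells of single-cell clones Hspa1a had 1339 CPM in EomesTG and 549.8 CPM in WT (log2 1.28), and 5 of 11 heat shock genes were higher there, where 2.5% of all 9577 genes compared were higher. Stress during tissue handling is known to raise such genes, and its part in the difference was not tested. Of 15 immediate early genes 6 were higher and 1 lower by cells (median 0.29), and 2 and 1 clone by clone (median −0.03); without WT clone 1, 1 was higher and 3 lower by cells.

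Cell cycle genes were lower in 14 of 16 members both by cells (median −1.15) and clone by clone (median −1.50), with none higher. Mki67, present in dividing cells, had 112 CPM in EomesTG and 229 CPM in WT expanded cells (log2 −1.03), and Pclaf, a DNA replication factor, 136 and 408 CPM (log2 −1.59). Without WT clone 1 the ratios by cells of the mitotic cyclins Ccnb2 and Ccnb1 were −0.78 and −0.59 in place of −1.59 and −1.36. Those of Top2a, Ccna2 and Ube2c were −0.65, −0.54 and −0.22 in place of −1.27, −1.13 and −1.07. In cells of single-cell clones 10 of 16 cell cycle genes were also lower in EomesTG and none higher (median −0.64), where 3.38% of all genes compared were lower. Type I interferon response genes were lower in 8 of 13 by cells (median −0.79) and 6 clone by clone, with none higher; Ifit3 had 8.92 and 56.2 CPM.

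Survival genes gave 5 higher and 1 lower of 15 by cells (median 0.29), and 4 and 1 clone by clone (median −0.04). Bcl2, which blocks mitochondrial apoptosis, had 513 CPM in EomesTG and 77.5 CPM in WT expanded cells (log2 2.73), and Bcl2l11 (BIM), which promotes it, was higher too, at 109 and 29.0 CPM. Memory factors gave 3 higher and 5 lower of 12 (median −0.05), with Eomes itself, the gene of the transgene, among the higher. Stat3 was higher (235 and 96.7 CPM), and Tbx21 (T-bet), the T-box relative of Eomes, was lower at 85.2 and 149 CPM (log2 −0.81, −0.55 clone by clone). Glycolysis gave 1 higher and 1 lower of 14, and none of 12 genes of MHC class I presentation was called either way.

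**Figure D3:**
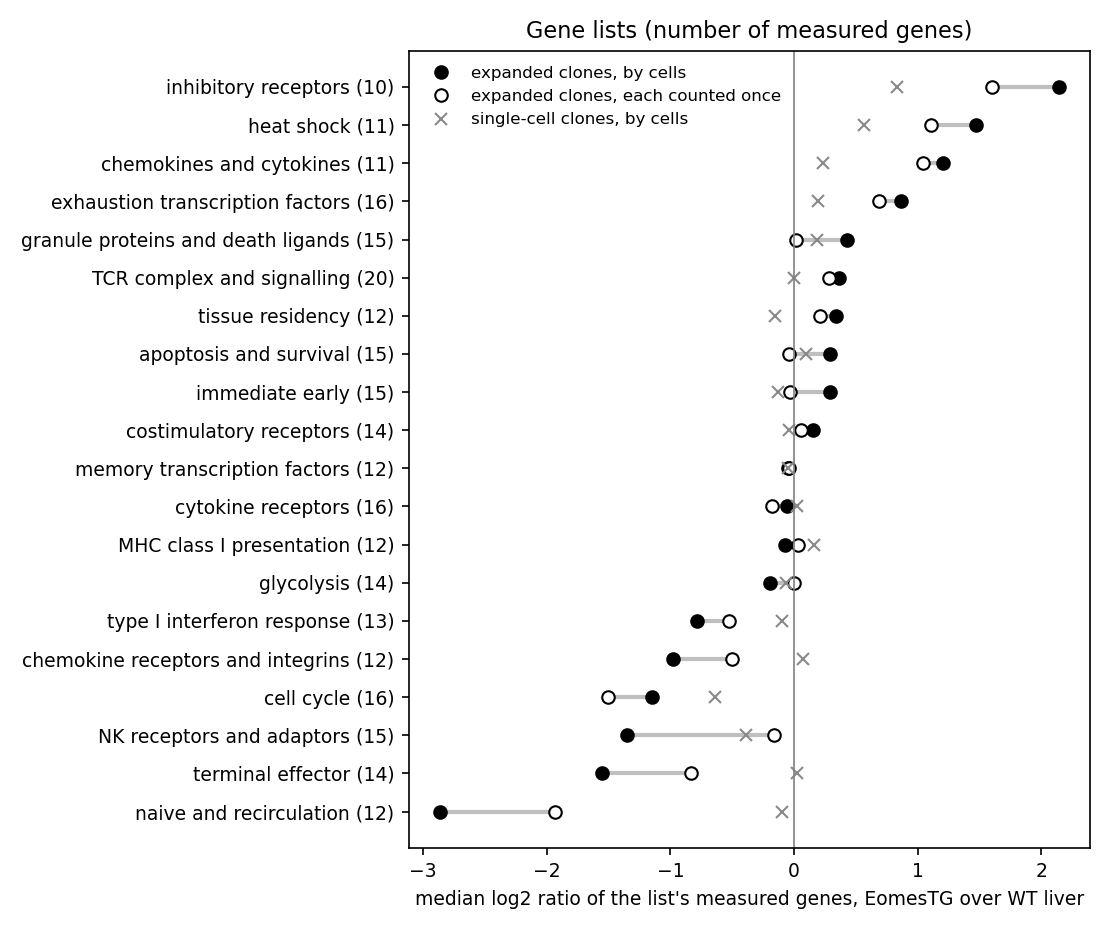
Median log2 ratio of CPM, EomesTG over WT, for 20 gene lists: black points by cells of expanded clones, open points with each clone counted once and grey crosses in cells of single-cell clones. Inhibitory receptors reach 2.14 and naive genes −2.86 in expanded cells, against 0.83 and −0.10 in single-cell clones.

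The largest ratios belonged to genes nearly without a UMI in WT expanded clones. Cd200r2, a relative of the CD200 receptor, had 233 CPM in EomesTG expanded cells, against 0.426 CPM in WT, a single UMI (log2 9.10, 6.62 to 14.40), and was found in 51 of 81 EomesTG clones and 1 of 43 WT clones. Adgrg1 (GPR56), an adhesion receptor of cytotoxic lymphocytes, had 118 and 4.68 CPM (log2 4.66) and was found in 60 and 3 clones. Lim2, a membrane protein known from the lens, had 101 and 1.28 CPM, with 3 WT UMIs (log2 6.31, 4.76 to 8.59), in 38 and 3 clones. Calcb, a calcitonin gene-related peptide, had 53.6 and 0.426 CPM, with 1 WT UMI (log2 6.98, 4.49 to 12.28), in 31 and 1 clones. Hspb1, a small heat shock protein, had 70.5 and 2.13 CPM (log2 5.05) in 37 and 2 clones. These genes thus recurred over many EomesTG clones, and the 81 clones used 75 distinct TRB sequences.

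A further set had no UMI in any WT expanded clone, and a fold against the floor of 3 UMIs over all WT expanded cells is given as a bound. Glp1r, the receptor of the hormone GLP-1, had 38.8 CPM in EomesTG, at least 30.4-fold higher, and was found in 37 clones. Epha3, an ephrin receptor, had 37.1 CPM, at least 29.0-fold higher, in 26 clones. Ccdc80 had 23.5 CPM, at least 18.4-fold higher, in 33 clones. Clgn, a chaperone of the endoplasmic reticulum, had 18.1 CPM, at least 14.2-fold higher, in 23 clones. Heyl, a transcriptional repressor of the Notch pathway, had 16.6 CPM, at least 13.0-fold higher, in 27 clones. In all, 36 of the genes compared had no UMI in WT expanded cells, whose total of 2347932 UMIs was below the EomesTG total of 10093432 UMIs.

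Prss2, a trypsin gene, stood apart in that few clones carried it. It had 93.6 CPM over EomesTG expanded cells, at least 73.3-fold higher than in WT, where it had no UMI, but clones 3 and 5 held 96.8% of its UMIs. Its level was 673 CPM in clone 3 and 775 CPM in clone 5, which share a TRB, and 988 and 954 CPM in clones 47 and 69 (5 and 3 cells). In 74 of 81 EomesTG clones it had no UMI. Prss2 lies inside the TRB locus on chromosome 6, at 41521787 to 41525079 on the forward strand, and ends 8122 bases before the start of Trbd1, a D segment. Clones 3 and 5 also had little Cd200r2 (9.93 and 13.1 CPM, against 280 and 406 CPM in clones 1 and 2 and 46.4 CPM in clone 4) and much Lim2 (296 and 222 CPM).

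**Figure D4:**
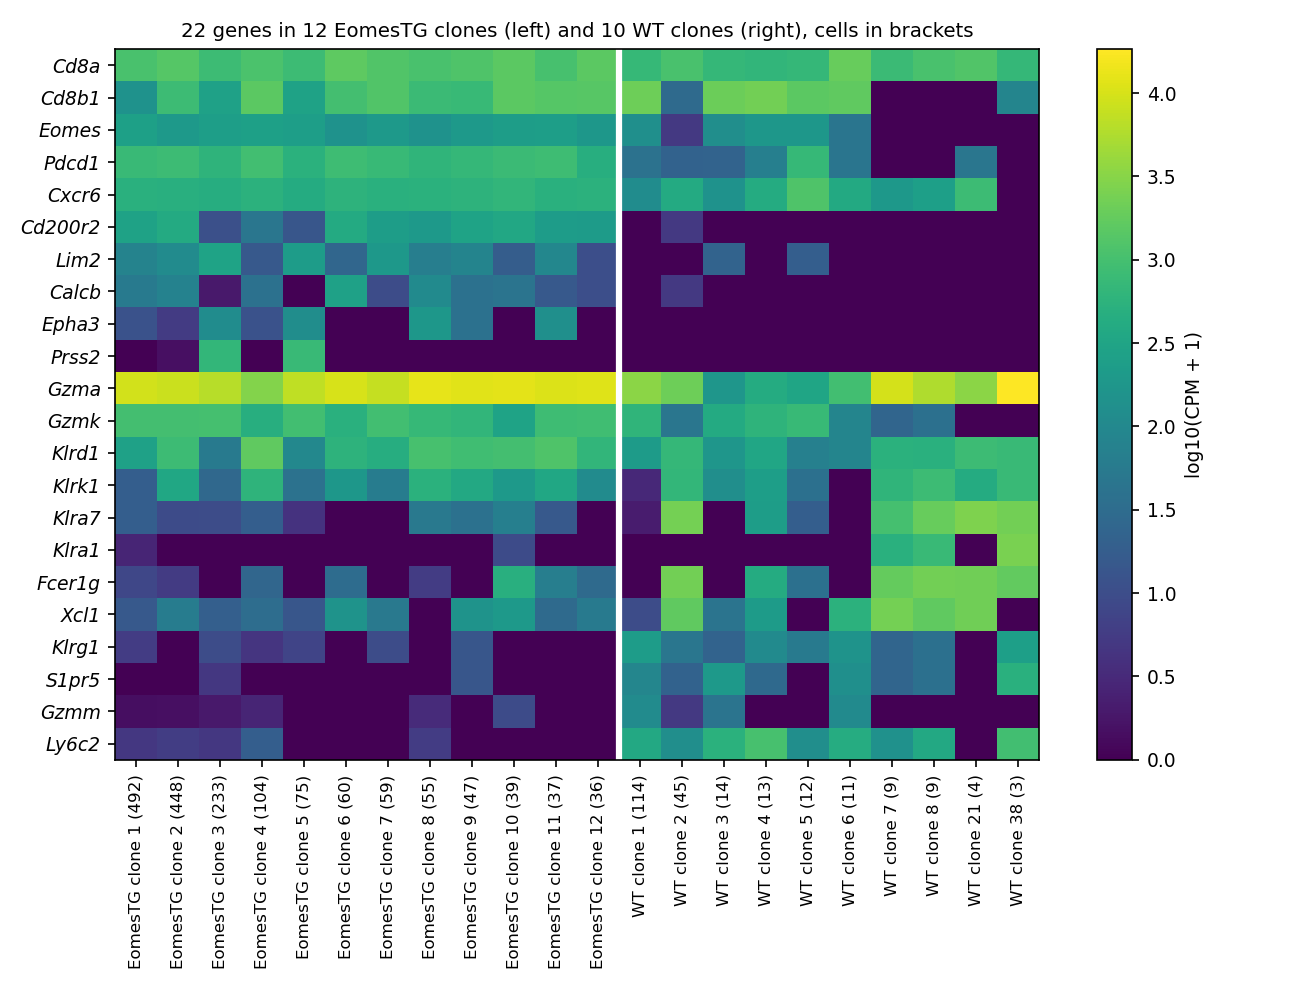
Level of 22 genes (rows; shade is log10 of CPM + 1) in the 12 largest EomesTG clones (left) and in 10 WT clones (right), the 8 largest with clones 21 and 38. Pdcd1 is present in every EomesTG column, Cd200r2 is low in EomesTG clones 3, 4 and 5, Prss2 is high in EomesTG clones 3 and 5, and WT clones 2, 7, 8, 21 and 38 carry Klra7 and Fcer1g with little Cd8b1.

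The lowest ratios were of genes found in WT clones and at low summed levels in EomesTG expanded cells. Ly6c2, a surface protein of circulating memory and effector cells, had 19.3 CPM in EomesTG and 446 CPM in WT expanded cells (log2 −4.53 by cells, −2.77 clone by clone), with a UMI in 28 of 81 and 36 of 43 clones. Fcgrt, the neonatal Fc receptor, had 0.198 CPM (2 UMIs) in EomesTG and 32.4 CPM in WT (log2 −7.35, −10.42 to −5.45). Atp1b1, a sodium pump subunit, had 0.396 and 27.7 CPM, and Nebl, an actin-binding protein, 0.495 and 20.4 CPM. WT clone 2 held 48 of the 65 WT UMIs of Atp1b1, whose log2 ratio was −6.13, or −4.35 without that clone. Pdlim1, an actin-linked adaptor, had 5.85 and 90.3 CPM. WT clone 1, at 39.5% of WT expanded UMIs, held 65.8% of the WT UMIs of Fcgrt, 52.2% of S1pr5 and 55.2% of Ccr2. The ratios of these genes clone by clone kept their direction and were nearer to equality.

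The WT expanded cells were themselves of several kinds. WT clone 1 had 223 CPM of Klrg1, 179 CPM of Cx3cr1, 39.9 CPM of Pdcd1 and 2137 CPM of Cd8b1. WT clone 5 (12 cells) had 721 CPM of Pdcd1, 992 CPM of Lag3 and 523 CPM of Tox, within the range of the EomesTG clones, and 1226 CPM of Tigit, above it. WT clone 43 (3 cells) had the highest Pdcd1 and Lag3 of the WT clones, at 890.2 and 1208 CPM. Another kind was picked out after its values were seen: 5 WT clones (2, 7, 8, 21 and 38, 70 cells) had under 100 CPM of Cd8b1 with 688 to 1281 CPM of Cd8a. They had 996 to 2744.5 CPM of Klra7, 1719 to 2272 CPM of Fcer1g, 2082 to 18308 CPM of Gzma and 0 to 4.13 CPM of Eomes. Among EomesTG clones 1 (clone 47, 5 cells) was under 100 CPM of Cd8b1, and it had no Klra7 or Fcer1g UMI. No other expanded clone exceeded 280 CPM of Klra7 in EomesTG or 235 CPM in WT. Fcer1g and Gzma were not limited to these clones, and reached 1907 and 17053 CPM among the other EomesTG clones and 414 and 5266 CPM among the other WT clones. Large EomesTG clones with reduced Cd8b1 were of another sort: clone 1 had 147 CPM and clones 3 and 5 had 278 and 281 CPM, with 18, 8.9 and 3.3 CPM of Klra7.

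The weight given to clones mattered for size more often than for direction. Of the genes called higher by cells 69.7% were also called clone by clone, and of those called lower 69.8%; 12 genes were called in opposite directions. Among genes with at least 200 UMIs, the values that moved most between the ways of counting were those of Hspb1 (log2 5.05 by cells, 7.68 clone by clone), Ccr2 (−3.98, −1.44), Gzmm (−5.37, −2.95), Areg, the growth factor amphiregulin (4.84, 2.62), and Wdr95 (−2.58, −0.43). WT clone 1 held 66.9% of the WT UMIs of Wdr95. Hspb1 had only 5 WT UMIs, 4 of them in WT clone 2, and Areg only 2, so their ratios rest on few WT molecules. Leaving out any 1 clone moved 28 of the 89 genes named by rule over 1.5-fold, and 1 of them, Gzmc, changed sign. The 89 include Prss2, Glp1r, Epha3, Ccdc80, Clgn and Heyl, which had no WT UMI and were not put to this check. The 28 are therefore a minimum. Most of the clones whose omission moved a value were WT clones, of which the largest held 30.5% of the expanded cells. Examples by cells are Ahr (2.65, or 3.66 without WT clone 2), Areg (4.84, or 5.83 without WT clone 35), Klrc1 (3.76, or 3.04 without WT clone 1) and Fos (0.83, or 0.24 without WT clone 1). WT clone 1 had no Klrc1 UMI and 75 of the 868 WT UMIs of Fos. It held 39.5% of all WT expanded UMIs, so leaving it out changed the total to which these genes were scaled.

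**Figure D5:**
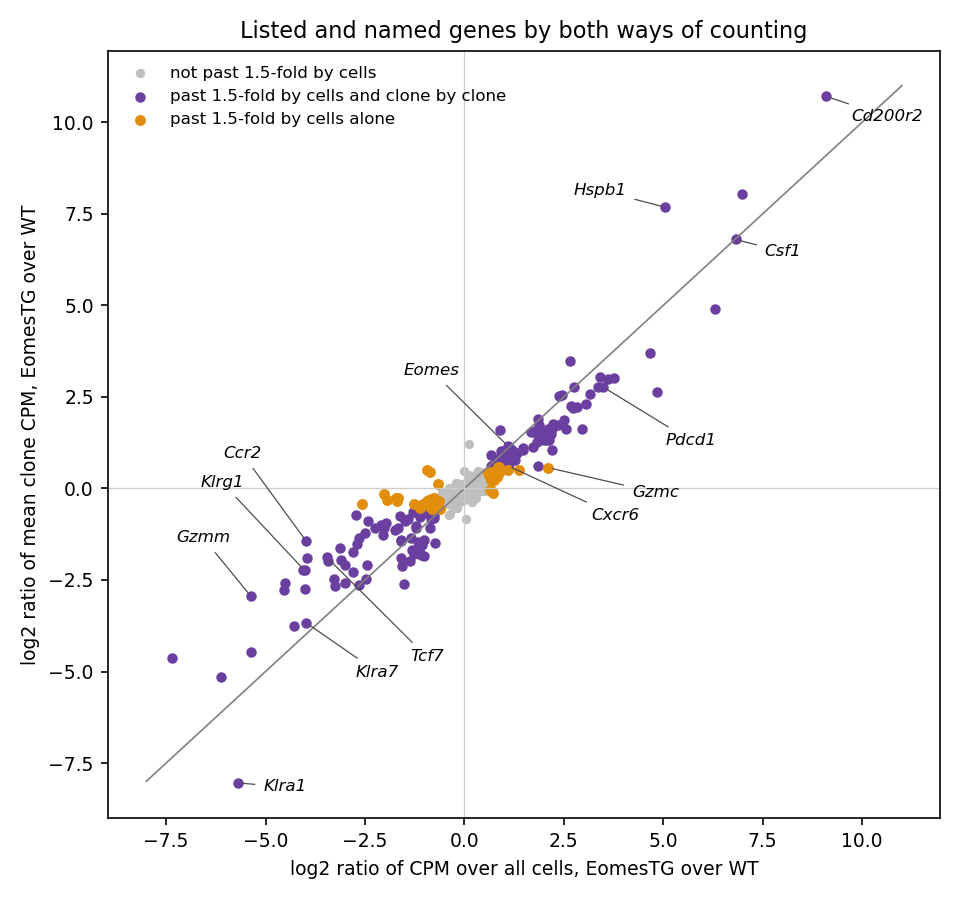
Log2 ratio of CPM, EomesTG over WT, by cells (horizontal) and with each clone counted once (vertical) for 288 listed or named genes with UMIs in both genotypes; the line marks equality. Of these, 142 were called the same way both ways, 44 by cells alone and 102 not by cells.

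Among the larger EomesTG clones, Prss2, Cd8b1 and NK receptors varied most from clone to clone. In the 29 EomesTG clones of at least 10 cells, the share of the variance between cells that lay between clones was highest for Prss2 (0.64), Cd8b1 (0.53), Klra3 (0.45), Klrd1 (0.42), Klre1 (0.41) and Klrk1 (0.41), against a median of 0.0041 over 5052 genes. It was 0.084 for Pdcd1, 0.023 for Hspa1a and 0.016 for Cxcr6. Over the 6 WT clones of that size it was highest for Cd8b1 (0.95), Klra7 (0.94) and Xcl1 (0.75), which separate WT clone 2 from the others, against a median of 0.055. Larger EomesTG clones had higher levels of several of the genes above. The mean over 19 clones of at least 20 cells and over 36 clones of 3 to 5 cells was 735 and 420 CPM for Pdcd1, 9167 and 3887 CPM for Gzma, 229 and 89.3 CPM for Cd200r2 and 102 and 19.1 CPM for Lim2. Eomes had 203 and 162 CPM.

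The differences between genotypes were smaller in cells of single-cell clones, 884 in EomesTG and 1932 in WT. The makeup of these cells also differed: those with no UMI of Ccl5, a gene of antigen-experienced cells, were 35.6% (32.5 to 38.9%) in EomesTG and 22.5% (20.6 to 24.4%) in WT, and the part of this in the ratios was not tested. Pdcd1 had 61.7 CPM in EomesTG and 15.9 CPM in WT single-cell clones (log2 1.95, 1.70 to 2.21), against 3.48 in expanded clones. Eomes had 129 and 85.0 CPM (log2 0.60), against 1.09 in expanded clones. Cxcr6 went the other way in single-cell clones, at 88.9 and 113 CPM (log2 −0.35), and Tcf7 and Cd8b1 were near equality (−0.06 and −0.01). When expanded clones of like size were compared, those of 3 to 5 cells (130 EomesTG and 100 WT cells), the list medians by cells were 1.72 for inhibitory receptors, −1.19 for naive genes, −0.73 for terminal effector genes, 0.89 for heat shock genes and −1.77 for cell cycle genes.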

How the data were processed

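CD8+ T cells from liver and spleen were profiled with the 10x Genomics 5′ v1 kit, per the labels. Cell Ranger and the mm10 build are named in the submitters' processing notes, and the matrix headers give software version 3.1.0. The deposited matrices hold raw UMI counts for 31053 genes, and the deposited contig tables give UMI counts per receptor contig. How cell barcodes were called and contigs assigned is not stated in these sources.

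Cells were filtered and joined into clones as described above; 4521 of 4587 EomesTG and 3150 of 3327 WT liver barcodes were kept, and 3253 and 2386 of these had both chains. UMI counts were summed over cells, or within each clone, and scaled to 1000000 UMIs (CPM). Ratios by cells have exact conditional binomial intervals and shares exact (Clopper-Pearson) binomial intervals, at 95%. Ratios with each clone counted once have no interval. The expected share at equal cell numbers follows the hypergeometric formula. No doublet caller was run; barcodes with 2 TRB chains were left out as an alternative. Germline V and J segments and gene positions came from GENCODE M21 (GRCm38). The ratio and interval code was tested on simulated data. Python 3.11.15, numpy 2.4.6, scipy 1.17.1, pandas 2.3.3 and matplotlib 3.10.9 were used.

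Members, gene lists and settings were chosen with earlier results of these data known. Named genes were Eomes, Pdcd1 and Cxcr6, the 12 highest and 12 lowest by the interval bound nearest equality among genes at least 1.5-fold the same way by both countings, the 5 genes of at least 200 UMIs farthest apart between countings, and up to 4 called members of each list with the largest ratios. Receptor segments, mitochondrial, ribosomal, predicted, Xist and Y-linked genes and markers of other cells could not enter by the ranking. Other list members given in the text were added after their values were seen.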

Additional observations from a re-analysis of the deposited data

How the results depend on the processing

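Of 40 values for shares and gene counts under other settings, 30 stayed within the limits (the 95% interval of a share, 1.5 times a gene count) and 10 did not. Of values of named genes 1806 moved by no more than the error margin of the interval by cells and 510 by more; of list medians, against the median error margin of their members, 458 and 100. The EomesTG share in expanded clones was 72.8% for clones of at least 2 cells and 66.1% for clones of at least 5 cells; the WT share was 19.0% and 12.5%. Of genes compared, 2056 were called by cells, but 1201 with a minimum of 200 UMIs, 445 in clones of 3 to 5 cells and 1307 after thinning to 2000 UMIs. With each clone counted once 2698 were called, but 1194 with a minimum of 200 UMIs, 4059 with a minimum of 10 UMIs and 609 in clones of 3 to 5 cells; the minimum and the clones of 3 to 5 cells change how many genes are compared. Of called genes 45.6% were higher by cells in clones of 3 to 5 cells, against 55.5% over all expanded clones. Of genes called and list medians past 1.5-fold over all expanded clones, 10 values changed sign. By cells these were Xcl1 (0.39), Ubash3b (−0.10) and Nfkbia (0.25) in clones of 3 to 5 cells, Fos (−0.14) without clones found in the spleen, and the NK receptor median, given above. With each clone counted once they were Csf2 (−0.084) and Tnfrsf4 (−1.10) for clones of at least 2 cells, Tnfrsf4 (−1.34) for clones defined by TRB alone, and Nfkbia (0.072) in clones of 3 to 5 cells. Values nearer to equality changed sign in 4 cases for genes (Fos, Gzmc, Pmaip1 and Ubash3b, each clone counted once) and in 58 cases over 14 list medians. The cause of these changes was not tested. The NK receptor median by cells was 0.34 over genes of at least 200 UMIs and 0.66 in clones of 3 to 5 cells. By cells, the medians over all settings ran from 1.64 to 2.36 for inhibitory receptors, −3.62 to −1.19 for naive genes, 0.89 to 1.57 for heat shock genes and −1.77 to −0.62 for cell cycle genes. No paired analysis was possible because each genotype has 1 liver library. Clones of 3 cells limit the depth: the smallest held 7563 UMIs in EomesTG and 6818 UMIs in WT, so that no UMI of a gene in such a clone is weak evidence of its absence.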
